A study of Homo sapiens with 8 samples.

Results

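The 37 transcripts of the human mitochondrial genome were examined in cardiomyocytes derived from induced pluripotent stem cells (hiPS-CMs). They are all rows of the gene table whose symbol begins with MT-, 37 of 60658 genes listed, and comprise 13 mRNA genes, 2 rRNA genes and 22 tRNA genes. Both groups of cells were kept for 12 h at 1% O2 in low-glucose medium (0.3 g/L) without serum and then for 12 h under reoxygenation, a model of ischemia and reperfusion (H/R). The H/R group, with 4 libraries, was reoxygenated in regular medium with serum, and the H/R+BA group, also with 4 libraries, in medium conditioned by brown adipocyte (BA) sheets. The sheets were made from rat brown preadipocytes induced with insulin, T3, IBMX, dexamethasone and rosiglitazone. They were then kept in maintenance medium with serum, insulin and T3. All 8 libraries came from a single iPSC line, named 235G1 in the sample labels and 253G1 in the study's methods. No library of cells without H/R is among those compared. Beyond line, treatment and number, nothing is said of how the replicates were separated, and a p-value here measures the spread between these 8 libraries.

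The mitochondrial genome encodes core subunits of respiratory complexes I, III, IV and V, with the rRNAs and tRNAs that translate them. Each strand is transcribed as a long precursor, from which the tRNAs are cut out and the rRNAs and mRNAs between them are released. In cardiomyocytes, which rely on respiration for contraction, these mRNAs are among the most abundant of all. Most mature mitochondrial mRNAs carry a poly(A) tail, the rRNAs carry only a short one and the tRNAs none. The libraries were made with a stranded kit that selects poly(A) RNA, and tail lengths were not measured. In bulk RNA, fewer cells and less RNA per cell cannot be told apart.

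The genome is so compact that neighbouring genes share bases, and the junctions are shown because reads over them belong to more than 1 gene. Sequences are from hg38 (GRCh38), 5′ to 3′, with gene limits from GENCODE release 44. In the first 3 lines, on the plus strand, the capitals mark the bases annotated in both genes. MT-ATP8 and MT-ATP6 share 46 bases in different reading frames (chrM:8507-8592 is shown), MT-ND4L and MT-ND4 share 7 (chrM:10740-10786), and MT-ATP6 and MT-CO3 share 1 (chrM:9187-9227). In the fourth line, from chrM:1562-1621 on the plus strand, the capitals mark the last 40 bases of MT-RNR1, the only member that passed the test below, and the lower case the first 20 bases of the valine tRNA behind it.
MT-ATP8/MT-ATP6: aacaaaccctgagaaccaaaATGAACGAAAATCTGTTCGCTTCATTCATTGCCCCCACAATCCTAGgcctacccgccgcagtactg
MT-ND4L/MT-ND4: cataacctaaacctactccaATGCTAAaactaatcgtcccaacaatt
MT-ATP6/MT-CO3: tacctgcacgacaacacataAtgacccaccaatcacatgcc
MT-RNR1 3-prime end: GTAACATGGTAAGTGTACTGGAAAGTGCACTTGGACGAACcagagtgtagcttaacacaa

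The libraries held 39854257 to 53308952 reads each, of which 95.4% to 96.3% were mapped. Pearson correlations of log2(FPKM + 1) were 0.976 to 0.990 between libraries of the H/R group and 0.988 to 0.992 within the H/R+BA group. Cardiomyocyte markers were abundant in every library, with a summed FPKM over 14 genes of 15758 to 24331 in the H/R group, against 17845 to 21868 in the H/R+BA group. Among markers of other cells, 7 of 9 endothelial, 3 of 8 fibroblast and 4 of 4 pluripotency genes tested were higher in the H/R+BA group, beside 13.7% of all genes. The fibroblast count was 6 without H/R library 3 and 1 without H/R library 1 or H/R+BA library 1, 2 or 4. Their summed FPKM was 96.9 to 110 against 145 to 169 for 12 endothelial genes, 486 to 770 against 702 to 909 for 9 fibroblast genes and 7.20 to 8.89 against 16.7 to 18.4 for 6 pluripotency genes, of which NANOG and L1TD1 were too low to be tested. Of 6 smooth muscle genes 1 was lower (0 to 3 when 1 library was left out), of 2 leukocyte genes 1 was higher, and of 6 hepatic and endodermal genes 1 was higher. The 6 adipocyte markers, UCP1 among them, summed to at most 1.01 FPKM. The part of these cells in the mitochondrial values was not tested.

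Mitochondrial transcripts took up 13.9% to 21.97% of the summed FPKM of all genes. FPKM are fragments scaled to the length of the gene and the size of the library. Here they rose more for short genes than length alone gives. FPKM per normalized count was 0.363 to 0.478 for MT-ATP8 (207 bases), against 0.0175 to 0.0178 for MT-CO1 (1542 bases). Levels of short genes therefore stand high beside those of long genes, also in ranks and sums of FPKM. Summed over the 37 genes, H/R libraries 1 to 4 had 117821, 88321, 144607 and 106591 FPKM, and H/R+BA libraries 1 to 4 had 99596, 95329, 102744 and 83586. All 13 mRNA genes were among the 30 genes of highest mean FPKM, and 7 were among the highest 10. The groups overlapped, with mean shares of 18.1% ± 2.95 and 15.3% ± 1.06 (SD, n = 4 each), and H/R libraries 2 and 3 lay at the ends of their group. The difference of −2.80 percentage points was −1.49 without H/R library 3. No test was made of this sum.

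By RNA class, the mRNAs made up 12.3% to 19.3% of the total in H/R libraries, against 12.6% to 13.8% in H/R+BA libraries. The rRNAs made up 1.06% to 1.44% and 1.25% to 1.39%. The tRNAs were listed at 1.13% to 1.53% in the H/R group, against 0% to 1.78% in the H/R+BA group, a share that rests on very few fragments (below). On the authors' normalized counts, which are not divided by length, the 37 genes made up 6.27% to 9.46% of the total in the H/R group, against 6.74% to 7.87% in the H/R+BA group.

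**Figure D1:**
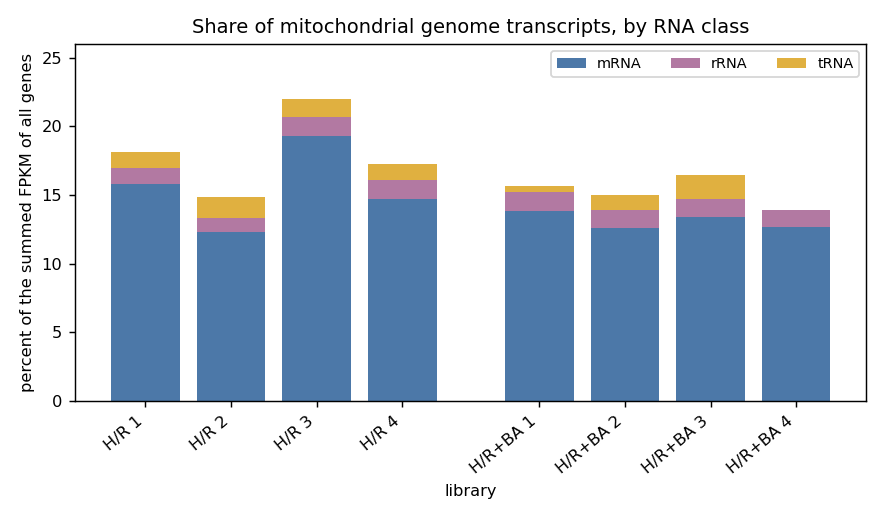
Percent of the summed FPKM of all genes (vertical axis) taken by mitochondrial mRNA, rRNA and tRNA genes in each of the 8 libraries (horizontal axis). The whole bar reaches between 14.9% and 21.97% for H/R and between 13.9% and 16.5% for H/R+BA, and H/R library 3 has the tallest bar.

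Of the 37 members, 18 were expressed enough to be tested, at 1 FPKM or more in at least 4 libraries: all 13 mRNAs, both rRNAs and 3 tRNAs. Only MT-RNR1 passed the test (adjusted p below 0.05 in limma on log2(FPKM + 1), over all genes tested), being higher in the H/R+BA group, and no member was called lower, with MT-CO3 and MT-ND1 the lower ones at an unadjusted p below 0.05 in limma. Over all 14334 genes tested, 24.7% were called, 13.7% higher and 11.1% lower. On the normalized counts the call was again MT-RNR1 alone, where 34.5% of all genes were called. In no mRNA or rRNA gene did the 4 libraries of one group all lie above the 4 of the other (0 of 15), while 28.6% of all genes tested separated the groups in this way.

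MT-RNR1 is the 12S rRNA of the small mitochondrial ribosomal subunit (chrM:648-1601, plus strand, the first long gene behind the heavy-strand promoters). It had 1147, 1008, 1110 and 1457 FPKM in H/R libraries 1 to 4, and 1642, 1606, 1472 and 1395 in H/R+BA libraries 1 to 4. H/R library 4 stood above the other three of its group and above H/R+BA library 4, so the groups overlapped by this pair. The mean rose from 1181 ± 194 to 1529 ± 115 FPKM (SD, n = 4 each), a log2 fold change of 0.38 (SE 0.11, 95% interval 0.13 to 0.63, adjusted p = 0.0324 in limma). The call was close to the threshold. It was lost when any 1 of H/R libraries 1, 2 or 3 or of H/R+BA libraries 1, 2 or 3 was left out, with adjusted p of 0.0606 to 0.0888 in limma, and the log2 fold change then lay between 0.31 and 0.40. Without H/R library 4 it was 0.49 (adjusted p = 0.00613 in limma).

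MT-RNR2, the 16S rRNA of the large subunit (chrM:1671-3229, plus strand), lies behind MT-RNR1 on the same precursor, with the valine tRNA between them. It had 6375, 5273, 7954 and 7433 FPKM in the H/R group, against 7222, 6649, 6774 and 6113 in the H/R+BA group. The H/R libraries held both the lowest and the 2 highest of these values. Its log2 fold change was 0.00 (SE 0.13, 95% interval −0.30 to 0.30, adjusted p = 0.999 in limma). With FPKM rescaled by median ratios it was −0.01, and with an equal sum outside the mitochondrial genome −0.04.

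All 13 mRNA genes had a negative log2 fold change on FPKM, on normalized counts and with FPKM rescaled by median ratios or to an equal sum outside the mitochondrial genome. They are not 13 separate measurements, since MT-ATP8 and MT-ATP6 share 46 bases and MT-ND4L and MT-ND4 share 7 on the same strand. On FPKM none of the 13 passed the test, and with the equal sum outside the mitochondrial genome MT-CO3 did. Without H/R library 3, MT-ATP6, MT-ND4 and MT-CYB turned to between 0.02 and 0.03. The median over the 13 was −0.21, from −0.47 to −0.07, where the median over all genes tested was 0.01. On normalized counts the median was −0.20, from −0.44 to −0.05, beside −0.01 over all genes. Adjusted p ran from 0.0649 to 0.768 on FPKM and from 0.0610 to 0.819 on normalized counts in limma.

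The mRNAs moved together from library to library. H/R library 3 had the highest FPKM of all 8 libraries for 13 of 13 mRNA genes, and H/R library 2 the lowest of its group for 13 of 13. Within the H/R group the highest library exceeded the lowest by 1.49 to 2.08 times, and within the H/R+BA group by 1.10 to 1.30 times, the ratio being larger in the H/R group for 13 of 13. The difference in spread was not tested. Over 14 cardiomyocyte markers, summed FPKM was 24331, 15758, 23882 and 18239 in the H/R group, also lowest in library 2, and 21868, 21746, 18333 and 17845 in the H/R+BA group. Over 6 hepatic and endodermal markers it was 510, 1164, 408 and 848 in the H/R group, highest in library 2 and lowest in library 3, the reverse of the order of the mitochondrial mRNA sums (102661, 72971, 127004 and 90736). In the H/R+BA libraries the hepatic and endodermal sums were 517, 590, 909 and 819. The mitochondrial mRNA sums there were 87979, 80159, 83400 and 76077, so the orders were not the reverse of each other in that group. The part of cell composition in the mitochondrial values was not tested.

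**Figure D2:**
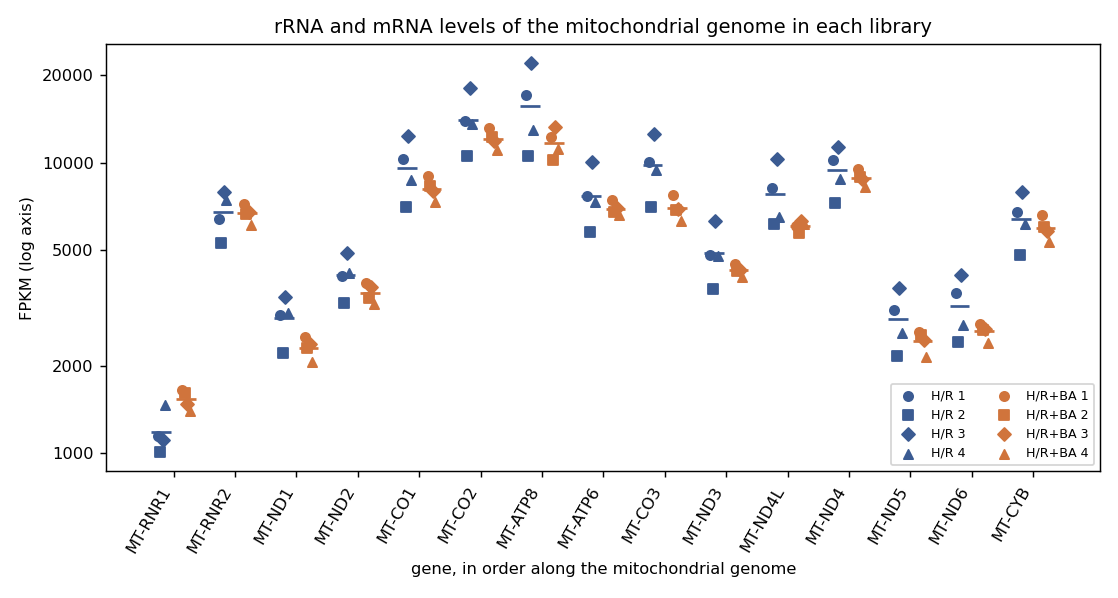
FPKM of the 2 rRNAs and 13 mRNAs (vertical axis, log scale) in order along the mitochondrial genome (horizontal axis), with 1 point per library and a line at each group mean. H/R library 3 is highest and H/R library 2 lowest of its group for each mRNA, and the groups overlap for every gene.

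Complex I, which takes electrons from NADH, has 7 mitochondrial subunits. MT-ND1, a membrane subunit at its quinone site (chrM:3307-4262, plus strand), is the first mRNA behind the rRNAs. It had 2975, 2207, 3453 and 3029 FPKM in the H/R group, against 2502, 2290, 2378 and 2058 in the H/R+BA group. Here 3 H/R libraries lay above all of the H/R+BA group, and library 2 lay among them. The log2 fold change was −0.32 (SE 0.13, 95% interval −0.62 to −0.03, adjusted p = 0.102 in limma). Without H/R library 2 it was −0.45 and passed the test (adjusted p = 0.00904 in limma).

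The other complex I mRNAs encode membrane subunits of the proton-pumping arm. MT-ND2 had 3287 to 4898 FPKM in the H/R group, against 3257 to 3862 in the H/R+BA group, and MT-ND4 7275 to 11325 and 8232 to 9531. MT-ND5 had 2163 to 3692 against 2146 to 2617 FPKM, and MT-ND3 3679 to 6296 against 4035 to 4465. MT-ND4L, which shares its end with MT-ND4 as printed above, had 6158 to 10293 against 5717 to 6295 FPKM. Their log2 fold changes ran from −0.33 (SE 0.16) for MT-ND4L to −0.07 (SE 0.14) for MT-ND4.

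MT-ND6 is the one mRNA read from the other strand (chrM:14149-14673, minus strand), opposite in direction to its neighbour MT-ND5. It had 3550, 2406, 4115 and 2748 FPKM in the H/R group, against 2786, 2655, 2666 and 2390 in the H/R+BA group, which lay inside the range of the H/R group but for its lowest library. The log2 fold change was −0.26 (SE 0.16, adjusted p = 0.251 in limma).

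MT-CYB, the cytochrome b of complex III (chrM:14747-15887, plus strand), had 6745, 4824, 7905 and 6170 FPKM in the H/R group, against 6593, 6017, 5809 and 5321 in the H/R+BA group. All 4 libraries of the H/R+BA group lay within the range of the H/R group. Its log2 fold change was −0.09 (SE 0.15, adjusted p = 0.683 in limma).

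Complex IV, which passes electrons to oxygen, holds 3 mitochondrial subunits. MT-CO3 (chrM:9207-9990, plus strand) is a core subunit without a metal centre, and its mRNA had the most negative change of the 13. It had 10055, 7049, 12562 and 9464 FPKM in the H/R group, against 7735, 6878, 6906 and 6307 in the H/R+BA group. Libraries 1, 3 and 4 of the H/R group lay above every H/R+BA library, and library 2 lay below the highest of them. The log2 fold change was −0.47 (SE 0.16, 95% interval −0.83 to −0.10, adjusted p = 0.0649 in limma). It passed the test without H/R library 2, at −0.61 (adjusted p = 0.00876 in limma), and with FPKM rescaled to an equal sum over genes outside the mitochondrial genome, at −0.50.

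The catalytic subunits differed less. MT-CO1, which binds the haems where oxygen is reduced, had 7059 to 12354 FPKM in the H/R group, against 7317 to 8984 in the H/R+BA group (log2 fold change −0.21, SE 0.17). MT-CO2, which receives electrons from cytochrome c, had 10542 to 18086 and 11054 to 13195 FPKM (log2 fold change −0.19, SE 0.16). In neither did a library of the H/R+BA group fall below the lowest H/R library.

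Complex V makes ATP. MT-ATP6, its proton channel subunit, had 7696, 5747, 10051 and 7323 FPKM in the H/R group, against 7416, 6778, 6964 and 6627 in the H/R+BA group (log2 fold change −0.12, SE 0.15). MT-ATP8, a small membrane subunit of 207 bases of coding sequence whose last 46 bases also belong to MT-ATP6, had 17072, 10575, 21975 and 12953 FPKM against 12244, 10176, 13273 and 11169. Of all 15 genes MT-ATP8 had the widest range in the H/R group, 2.08-fold. Its log2 fold change was −0.37 (SE 0.21, adjusted p = 0.232 in limma).

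For short genes the change depended on the unit. FPKM of MT-ATP8 amounted to 0.478, 0.434, 0.463 and 0.391 per normalized count in H/R libraries 1 to 4 and to 0.386, 0.363, 0.424 and 0.408 in the H/R+BA libraries. For MT-CO1, of 1542 bases, this factor stayed between 0.0175 and 0.0178. On normalized counts the log2 fold change of MT-ATP8 was −0.21 in place of −0.37, that of MT-ND4L −0.24 in place of −0.33 and that of MT-ND3 −0.10 in place of −0.17. For MT-CO1 it was −0.20 in place of −0.21. Which step of the authors' processing set this factor was not tested.

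**Figure D3:**
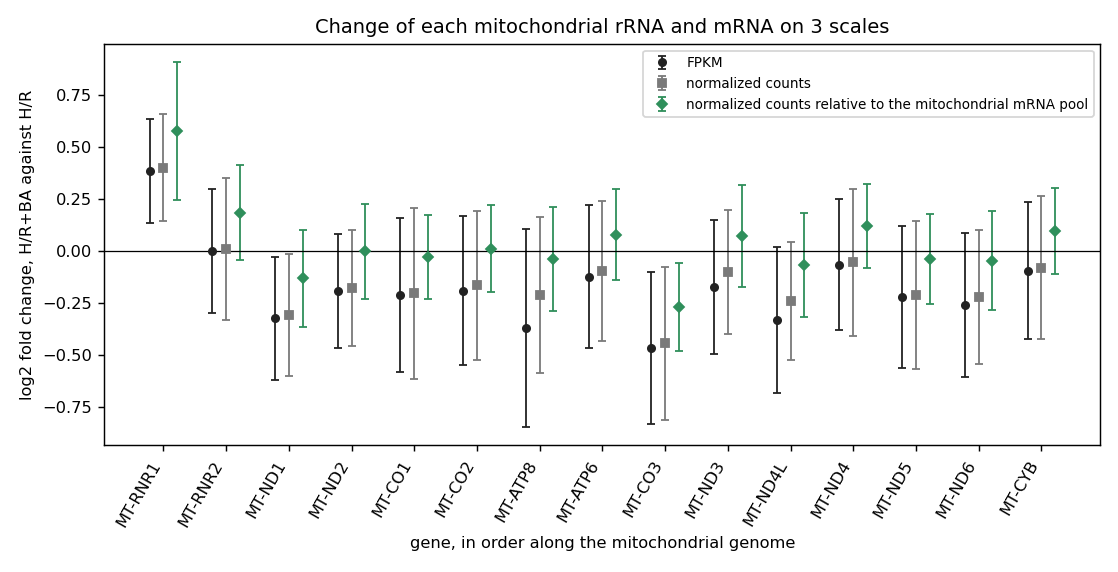
Log2 fold change of H/R+BA against H/R with its 95% interval (vertical axis) for the 2 rRNAs and 13 mRNAs in genome order (horizontal axis), from limma on FPKM, on normalized counts and on normalized counts relative to the mitochondrial mRNA pool. MT-RNR1 lies above 0 on all 3 scales and MT-CO3 below 0 on all 3, and the mRNAs lie below 0 on the first 2 scales, while MT-CO2, MT-ATP6, MT-ND3, MT-ND4 and MT-CYB turn above 0 on the third.

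Because the mRNAs varied together, the composition of the mitochondrial RNA was compared within libraries, a comparison added after the values had been seen. Each gene was expressed as a percent of the normalized counts of the 15 mRNA and rRNA genes. MT-CO1 was the largest member, at 16.8% to 18.8%, followed by MT-ND4 at 14.97% to 16.8% and MT-RNR2 at 11.8% to 14.6%. MT-CO3 took 8.24%, 7.91%, 8.55% and 8.34% in the H/R group, against 6.87%, 6.62%, 6.66% and 6.65% in the H/R+BA group. These values did not overlap, and the H/R+BA libraries differed from each other by less than the gap between the groups. MT-ND1, at 3.00% to 3.39% against 2.76% to 2.92%, and MT-CYB, at 8.47% to 8.72% against 8.77% to 9.13%, did not overlap either. No share over all genes was taken on this scale. MT-ATP6, which joins MT-CO3 at the shared base printed above, took 5.25% to 5.71% and 5.48% to 5.85%.

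MT-RNR1 took 1.20%, 1.44%, 0.962% and 1.63% of these counts in the H/R group, against 1.85%, 1.95%, 1.80% and 1.87% in the H/R+BA group, without overlap. When normalized counts were scaled to an equal sum over the 13 mRNAs, MT-RNR1 rose by 0.58 on the log2 scale (SE 0.16, adjusted p = 0.0307 in limma), and it was the only one of the 15 to pass. On this scale 9.45% of all genes tested were called, 1226 higher and 129 lower, beside 2350 and 2595 on normalized counts and 1958 and 1588 on FPKM. The median log2 fold change of all genes was 0.17 on this scale. Relative to that median the log2 change was 0.41 for MT-RNR1 and −0.44 for MT-CO3. Relative to the mRNA pool, MT-CO3 had −0.27 (SE 0.10, adjusted p = 0.106 in limma). On this mRNA pool scale the groups did not overlap for 4 of the 15 genes, MT-RNR1, MT-CO3, MT-ND4 and MT-CYB, against 16.3% of all genes tested. Of these, MT-ND4 and MT-CYB were higher in the H/R+BA group at 0.12 (SE 0.09) and 0.10 (SE 0.10).

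Ratios of FPKM between neighbours within a library do not depend on a factor shared by all genes of that library. They keep the part of FPKM per normalized count that differs with gene length. Of these ratios 3 were tested by exact permutation of the 8 libraries, two-sided, where the smallest p possible is 0.0286. The log2 ratio of MT-RNR2 to MT-RNR1 was 2.47, 2.39, 2.84 and 2.35 in the H/R group, against 2.14, 2.05, 2.202 and 2.13 in the H/R+BA group. Every H/R library lay above every H/R+BA library, and H/R library 3 stood highest. The mean was 2.51 ± 0.22 against 2.13 ± 0.06 (SD, n = 4 each), a difference of −0.38 (exact p = 0.0286, 0.0429 after adjustment over the 3 ratios). This ratio and the result for MT-RNR1 rest on the same values.

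The log2 ratio of MT-RNR2 to MT-ND1, the last rRNA to the first mRNA behind it, was 1.10, 1.26, 1.20 and 1.30 in the H/R group, against 1.53, 1.54, 1.51 and 1.57 in the H/R+BA group. The groups did not overlap, and the H/R+BA libraries lay closer together. The mean was 1.21 ± 0.08 against 1.54 ± 0.03 (SD, n = 4 each), a difference of 0.32 (exact p = 0.0286, 0.0429 after adjustment over the 3 ratios). With only 4 libraries in each group, leaving out H/R+BA library 2 raised the adjusted p of both ratios to 0.0857 in the exact test.

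The log2 ratio of MT-ND6 to MT-ND5, mRNAs of opposite strands, was 0.19, 0.15, 0.16 and 0.09 in the H/R group, against 0.09, 0.06, 0.13 and 0.16 in the H/R+BA group. The groups overlapped throughout, with a difference of −0.04 between the means (exact p = 0.286, unchanged by adjustment). The log2 fold changes of MT-ND6 and MT-ND5 were −0.26 and −0.22 on FPKM, and −0.22 and −0.21 on normalized counts. Whether the authors counted reads by strand is not stated in anything read here. The part of reads from the opposite strand in the MT-ND6 values was not tested. The ratio therefore compares the values listed for these genes and cannot be taken as a comparison of the strands.

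**Figure D4:**
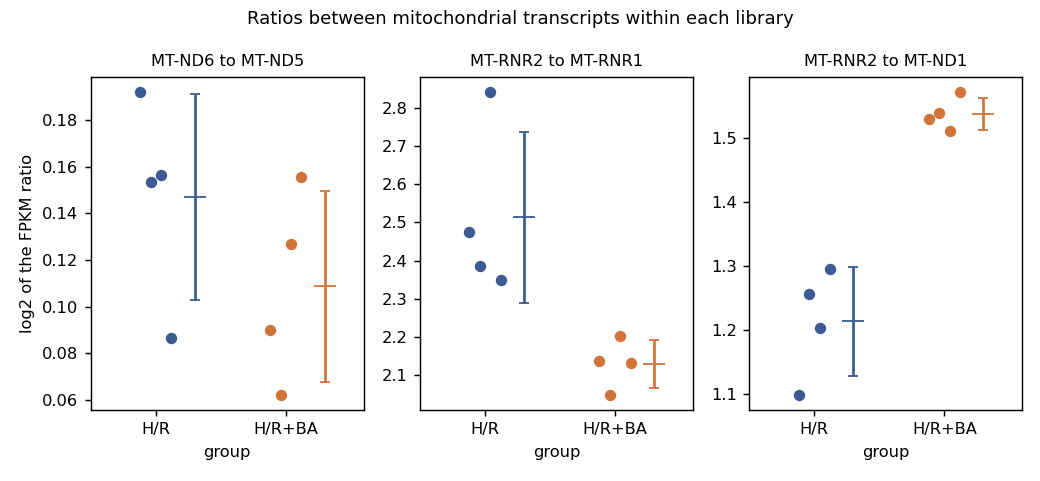
Log2 of the FPKM ratio (vertical axes) of MT-ND6 to MT-ND5, MT-RNR2 to MT-RNR1 and MT-RNR2 to MT-ND1 by group (horizontal axes), with 1 point per library and the mean with its SD beside them. The groups overlap for the first ratio and are apart for the other 2, lower in H/R+BA for MT-RNR2 to MT-RNR1 and higher for MT-RNR2 to MT-ND1.

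The tRNAs carry amino acids to the mitochondrial ribosome. Of the 22 tRNA genes, 17 were listed at 0 in all 8 libraries and 5 were above 0 in at least 1. Divided by the most frequent normalized count of its library, taken as 1 fragment, each of their values came out whole. The 22 genes together held 8, 8, 3 and 8 fragments in the H/R group, against 4, 16, 14 and 0 in the H/R+BA group. By comparison, the mRNAs had from 24363 to 695244 normalized counts per library.

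The tyrosine and cysteine tRNAs held most of these fragments. They lie side by side on the minus strand, MT-TY at chrM:5826-5891 and MT-TC at chrM:5761-5826, share the base in capitals and are printed because the log2 difference farthest from 0 of any member is that of MT-TY.
MT-TY: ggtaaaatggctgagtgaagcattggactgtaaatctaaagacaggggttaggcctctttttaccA
MT-TC: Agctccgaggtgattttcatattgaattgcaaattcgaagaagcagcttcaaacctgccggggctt

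MT-TY was listed at 1910, 8435, 5693 and 1912 FPKM in the H/R group and at 1377, 934, 1698 and 0 in the H/R+BA group. These stand for 2, 7, 2 and 2 fragments and for 2, 2, 2 and 0 fragments. The same 2 fragments thus read as 5693 FPKM in H/R library 3 and as 934 in H/R+BA library 2, and the groups shared the value of 2 fragments in 6 of the 8 libraries. On log2(FPKM + 1) the change was −4.07 (SE 2.09, adjusted p = 0.182 in limma), set mostly by the library at 0. On log2 of normalized counts + 1 it was −0.87 (SE 0.55, adjusted p = 0.246 in limma).

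MT-TC was listed at 5729, 0, 2846 and 3825 FPKM in the H/R group, from 6, 0, 1 and 4 fragments, and at 1377, 5137, 8492 and 0 in the H/R+BA group, from 2, 11, 10 and 0. Its sign changed with the unit, from −0.01 (SE 3.36) on FPKM to 0.47 on normalized counts. MT-TF, the phenylalanine tRNA ahead of MT-RNR1, had 0, 1, 0 and 1 fragments in the H/R group, against 0, 2, 2 and 0 in the H/R+BA group. MT-TV had 1 fragment, in H/R+BA library 2, and MT-TM, the methionine tRNA, 1 fragment, in H/R library 4. No difference in a tRNA was detectable with so few fragments.

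A block of chromosome 1 carries nuclear copies of 7 mitochondrial mRNA genes, whose reads an aligner can place at either site. The copies are 97.6% to 98.7% identical to the mitochondrial genes over their aligned length in hg38. MTATP6P1 (chr1:633696-634376) was listed at 1580, 1172, 1854 and 1613 FPKM in the H/R group, against 1787, 1578, 1492 and 1368 in the H/R+BA group. Its normalized counts equalled 18.4% to 24.1% of those of MT-ATP6, so the level of MT-ATP6 is uncertain by reads given to the copy. MTND2P28 had 170 to 271 FPKM, equal to 4.81% to 5.55% of the counts of MT-ND2, and MTCO1P12 24.9 to 54.5 FPKM, equal to 0.30% to 0.44% of the counts of MT-CO1. MTCO3P12, MTND1P23 and MTCO2P12 had 1.20 to 4.79 FPKM, at most 0.036% of the counts of the mitochondrial gene. None of these copies passed the test, with log2 fold changes of −0.44 for MTCO1P12, −0.34 for MTCO3P12, −0.23 for MTND2P28, −0.15 for MTND1P23, 0.01 for MTATP6P1 and 0.06 for MTCO2P12. MTCO2P2, a copy elsewhere, had at most 2.62 FPKM and −0.21, and MTATP8P1 was below 1 FPKM on average. Without adjustment, MTCO3P12 and MTCO1P12 had a p below 0.05 in limma.

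The nuclear genes for the other subunits of these complexes mostly had positive log2 fold changes, 72 of 77 tested for complexes I, III, IV and V, with a median of 0.17. By limma, 26 passed the test, all being higher with BA medium, beside 13.7% of all genes called higher. At an unadjusted p below 0.05 in limma, 47 were higher and 0 lower, for which no share over all genes was taken. Without H/R libraries 2 and 3, 6 were called higher, and without H/R+BA library 1 or 2, 13 or 12. Fewer of all 14334 genes were called higher there too, 1327, 1411 and 1374, beside 1958 in the main fit. For complex I, 5 of 37 were higher, with NDUFB9 at 0.39 (SE 0.07), NDUFB11 at 0.22 (SE 0.05) and NDUFB4 at 0.28 (SE 0.06), all accessory subunits of the membrane arm. The share of complex I genes called higher was thus close to that of all genes, and the count was 11 without H/R library 1 and 8 without H/R library 3. For complex III, 6 of 9 were higher, among them CYC1, the cytochrome c1, at 0.30 (SE 0.05), and UQCRQ and UQCRH, small subunits, at 0.26 (SE 0.06) and 0.30 (SE 0.07). The count for complex III was 2 without H/R+BA library 1, 1 without H/R+BA library 2 and 3 with a replicate block.

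For complex IV, 7 of 14 were higher, with COX7B at 0.40 (SE 0.10), COX5A at 0.32 (SE 0.08) and COX8A at 0.18 (SE 0.05), nuclear subunits around the mitochondrial core. The count for complex IV was 1 without H/R+BA library 1 or 2, 2 without H/R library 2, 3 without H/R library 1 or H/R+BA library 3, 4 without H/R library 4 or H/R+BA library 4, and 0 without a filter or with a replicate block. For complex V, 8 of 17 were higher, with the c-ring genes ATP5MC3 at 0.37 (SE 0.06) and ATP5MC1 at 0.45 (SE 0.09), and ATP5F1D, a subunit of the rotor stalk, at 0.32 (SE 0.06), and the count was 6 to 9 when 1 library was left out. The median over the list was 0.15 for complex I, 0.26 for III, 0.18 for IV and 0.21 for V. Adjusted p of the genes named here ran from 0.0035 to 0.0322 in limma.

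Summed FPKM of the nuclear subunits of complex IV was 3536, 3311, 3518 and 3507 in the H/R group, against 4141, 4106, 3824 and 3717 in the H/R+BA group, without overlap. For the 3 mitochondrial subunits of the same complex it was 34238, 24650, 43001 and 31745 against 29914, 27431, 26735 and 24677, with overlap. The log2 ratio of mitochondrial to nuclear summed FPKM was 3.28, 2.90, 3.61 and 3.18 in the H/R group, against 2.85, 2.74, 2.81 and 2.73 in the H/R+BA group, so that every H/R library was higher, library 2 by the least. For complexes I and III this log2 ratio was lower in the H/R+BA group by similar amounts, at 3.14 ± 0.22 against 2.79 ± 0.07 and 2.18 ± 0.22 against 1.83 ± 0.05 (SD, n = 4 each), again without overlap. For complex V it was 2.48 ± 0.35 against 2.00 ± 0.15, with overlap. No test was made of these sums.

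**Figure D5:**
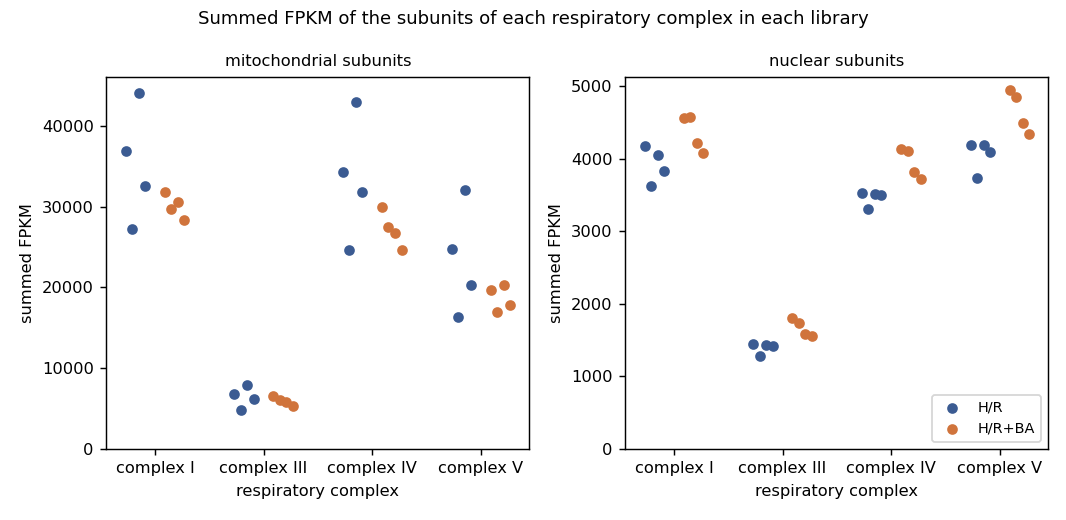
Summed FPKM of the mitochondrial subunits (left) and the nuclear subunits (right) of complexes I, III, IV and V (horizontal axes), with 1 point per library and group by colour. The mitochondrial sums overlap between groups in each complex, while the nuclear sums of complexes III, IV and V are higher in all 4 H/R+BA libraries than in any H/R library.

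Of 17 nuclear genes tested for transcription and replication of the mitochondrial genome, 1 was called higher and 3 lower, beside 13.7% and 11.1% of all genes, with a median of −0.03. The lower calls were 0 without H/R library 4, and 1 without any one H/R+BA library, without a filter or with a replicate block. TFB1M, which methylates the 12S rRNA, the product of MT-RNR1, had 0.47 (SE 0.07, adjusted p = 0.0013 in limma). POLG, the mitochondrial DNA polymerase, had −0.23 (SE 0.06), and TOP1MT, the mitochondrial topoisomerase, −0.32 (SE 0.09). MTERF1, a factor that binds behind the 16S rRNA gene, had −0.31 (SE 0.09), with adjusted p of 0.0224 to 0.0280 for these 3 in limma. The RNA polymerase gene POLRMT, at 0.14 (SE 0.07), did not pass on FPKM. On normalized counts 2 of the 17 were called higher and 2 lower. There POLRMT passed, at 0.20 (adjusted p = 0.0118 in limma), and MTERF1 did not, at −0.19 (adjusted p = 0.207 in limma).

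Of 40 nuclear genes for processing, modification and decay of mitochondrial RNA, 6 were called higher and 2 lower, with a median of 0.13. TRMU, which thiolates mitochondrial tRNAs, had 0.37 (SE 0.08, adjusted p = 0.0116 in limma). FASTK, an RNA-binding protein needed for the ND6 mRNA, had −0.25 (SE 0.05, adjusted p = 0.0084 in limma), and ANGEL2, a phosphatase acting on RNA ends, −0.37 (SE 0.08, adjusted p = 0.0107 in limma). Called genes were thus 8 of 40, beside 24.7% of all genes. The higher calls were 3 without H/R+BA library 1, 11 on normalized counts and 0 relative to the mitochondrial mRNA pool. Of all 14334 genes, 1411, 2350 and 1226 were called higher in these settings, beside 1958 in the main fit.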

How the data were processed

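RNA of 4 H/R and 4 H/R+BA libraries was analysed. Per the labels and methods, the authors trimmed reads with Trimmomatic 0.39, aligned them by HISAT2 2.1.0 to GRCh38.p5 and quantified them with featureCounts 2.0.6 or Cuffdiff 2.2.1. Nothing read here names the annotation release. The deposited table holds FPKM and normalized counts, the latter a signal that the authors divided by 1 factor per library. The deposited summary gives the percent of reads mapped. A count model had been the first choice. Only 82.7% to 83.7% of values below 50 were within 0.02 of a whole number of fragments, and the rest were not whole. Therefore log2(FPKM + 1) was fitted with limma 3.58.1 in R 4.3.3 (trend, two-sided, Benjamini-Hochberg over 14334 genes, threshold 0.05), keeping genes with at least 1 FPKM in 4 libraries. The fit was tested on simulated data. Nuclear copies were aligned with Biopython 1.88. Group means and comparisons by the authors (6 columns, including fold changes and p-values) and 9 libraries of the summary were not used. Same-numbered libraries were not treated as pairs in the main fit. Their deviations from the group means correlated at −0.25 to 0.24, which cannot exclude a pairing, and nothing read here says what the numbers mark. The members and lists were chosen with earlier results of these data known. By the naming rule, all mRNA and rRNA members, the tRNAs above 0, the 3 called genes of lowest p in each list and nuclear copies of at least 1 FPKM are named. MTERF1 and POLRMT were added after their values were seen. Other normalizations, pseudocounts (0.1), filters, left-out libraries and a replicate block were tried.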

Additional observations from a re-analysis of the deposited data

How the results depend on the processing

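Besides leaving out libraries, the settings tried were another pseudocount, no filter, at least 10 normalized counts in every library, a replicate block, median-ratio scaling, an equal sum outside the mitochondrial genome, normalized counts and limma without trend. Added after the data were seen were scaling to the mitochondrial mRNA pool, leaving out H/R libraries 2 and 3 together and the counts of nuclear subunits. The difference between the groups in the share of all members was −0.59 percentage points on normalized counts, −2.56 over protein-coding genes and −3.86 to −1.49 when 1 library was left out. The ratio of MT-ND6 to MT-ND5 passed under none. The number of members called higher was 0 without a filter, with the replicate block and without H/R libraries 2 and 3, and 0 to 1 when 1 library was left out. The number called lower was 1 with an equal sum outside the mitochondrial genome, 2 without H/R libraries 2 and 3, and 0 to 2 when 1 library was left out. Whether the replicate numbers pair the libraries is not known. With a replicate block, which allows no p below 0.125 in the permutation within pairs, the log2 ratio of MT-RNR2 to MT-RNR1 differed by −0.38 and that of MT-RNR2 to MT-ND1 by 0.32, both no longer past the threshold (exact permutation p = 0.125, 0.188 after adjustment), and MT-RNR1 had an adjusted p of 0.0844 in limma. Leaving out 1 library gave −0.44 to −0.27 and 0.29 to 0.35 for these ratios.

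The log2 fold change of MT-RNR2 changed sign, to −0.013 with median-ratio scaling, −0.036 with an equal sum outside the mitochondrial genome, −0.044 without H/R libraries 2 and 3, and −0.11 to 0.084 when 1 library was left out. Relative to the mitochondrial mRNA pool it was 0.011 for MT-CO2, 0.079 for MT-ATP6, 0.072 for MT-ND3, 0.12 for MT-ND4, 0.10 for MT-CYB and 0.61 for MT-TC, which had 0.47 on normalized counts. When 1 library was left out it ran from −0.25 to 0.015 for MT-ATP6, −0.18 to 0.030 for MT-ND4, −0.22 to 0.015 for MT-CYB, −1.56 to 1.72 for MT-TF and −3.002 to 2.97 for MT-TC. The count of nuclear subunits called higher was 12 without a filter, 13 with the replicate block, 10 relative to the mRNA pool, 6 without H/R libraries 2 and 3, and 12 to 26 when 1 library was left out. Over all genes, 1648 of 33869 were called higher without a filter. With the replicate block, relative to the mRNA pool and without H/R libraries 2 and 3 it was 1460, 1226 and 1327 of 14334. The causes of these shifts were not tested. The exact test per gene was not run. Its smallest possible p is 0.0286 with 4 libraries a group. As only 28.6% of all genes tested separated the groups, its adjusted p could not pass the threshold here. The tRNA values rest on 61 fragments in all.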
